A study of Mus musculus with 2 samples.

Results

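The Runx1, Runx2 and Runx3 loci are the 3 stretches of the mouse genome that hold the Runx family of transcription factor genes. Their members here are the deposited regions that overlap, by at least 1 bp, a fixed window around each gene in build mm9: chromosome 16, 92550000 to 92880000 for Runx1, chromosome 17, 44580000 to 45000000 for Runx2, and chromosome 4, 134620000 to 134790000 for Runx3. Of the 61400 regions in the list, 93 met this rule, with 31 at Runx1, 32 at Runx2 and 30 at Runx3. The windows were set by position, and no measured value entered the rule.

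The regions come from chromatin immunoprecipitation with sequencing (ChIP-seq), in which DNA bound to an antibody's target is recovered and counted as tags. The label gives histone H4 as the antibody's target, while the series' own design text names acetylated H4. Cells of the MC3T3 sc4 line, a mouse calvarial osteoblast line, were kept in osteogenic medium with ascorbic acid and beta glycerol phosphate. On day 4 the DMSO group was given the solvent for 2 h, and the SAHA group 20 µM SAHA (suberoylanilide hydroxamic acid), which blocks histone deacetylases. Both exposures went on through 40 min of collagenase. Each group was 1 library from 1 line, so no spread between cultures is known and no test of the treatment was possible. The list holds regions with more SAHA than DMSO tags, here called SAHA-high, and stretches that moved the other way were not analysed here. A region list holds no expression, so the labelled cell type was not checked against marker genes.

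Runx proteins bind DNA through a conserved Runt domain, together with the partner CBFβ, and can activate or repress the genes they bind. RUNX2 is required for osteoblasts to form, RUNX1 is known for its role in the origin of blood stem cells and is also present in skeletal cells, and RUNX3 acts in T cells, in sensory neurons and, with RUNX2, in cartilage. Runx genes have a distal and a proximal promoter that start different transcripts. Acetylation of histone H4 is a mark of open chromatin, and deacetylases remove it.

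The promoter sequences are shown because the distal promoters of the 3 genes share a feature that the rule did not use. Promoter windows of the 3 genes, from RefSeq (build GRCm38.p6), ran from 250 bases before the annotated start to 50 bases after it. The window farthest upstream in each gene was called distal here and any other proximal. The only window listed for Runx2 was thus called distal by this rule. A search for the longest stretch common to the distal windows of all 3 genes, on the gene's strand, found 1 of 18 bases, which contained ACCACA, the reverse complement of the Runx binding word TGTGGT, at 2 places. It stands in capitals within 30 bases of each window, read 5′ to 3′ on the gene's strand, which is the minus strand for Runx1 and Runx2 and the plus strand for Runx3:
Runx1: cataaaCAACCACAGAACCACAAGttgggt
Runx2: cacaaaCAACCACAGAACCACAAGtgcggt
Runx3: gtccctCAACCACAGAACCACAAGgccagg
In Runx1 the stretch ran from base 27 to base 44 after the start, and in Runx2 from base 22 to base 39. In Runx3 it lay before the start, from base -136 to base -119. Of 32851 promoter windows in the table, 4 held these 18 bases on either strand: the 3 distal Runx windows and that of Gm16225, a non-coding gene beside Runx3 whose window overlaps the Runx3 window. The short word ACCACA or TGTGGT occurred in 16.8% of all windows and at 2 or more places in 1.8%. The distal windows of Runx1 and Runx3 each had it at 2 places and that of Runx2 at 3, whereas it was not found in the proximal windows of Runx1 and Runx3. No proximal window was listed for Runx2, so distal and proximal windows are compared for Runx1 and Runx3 only. The proximal windows were rich in the dinucleotide CG, with 35 in Runx1 and 45 in Runx3, against 2, 2 and 8 in the distal windows of Runx1, Runx2 and Runx3 and a median of 7 over all windows. No annotation of build mm9 was used, so these promoters were not placed on the SAHA-high regions.

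The SAHA library kept 123676661 tags and the DMSO library 76214516 after the limit on duplicate tags, with redundant rates of 0.03 and 0.34. The part of this imbalance in the values below was not tested. Scaled to the SAHA library, 1 DMSO tag counted as 1.623 tags, and the genome average was 66.14 tags per kb.

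All 3 loci were rich in SAHA-high regions, and Runx3 was covered most densely. The Runx3 window, the shortest at 170 kb, had 52.8% of its length inside SAHA-high regions (89.7 kb). The share was 25.1% of the 330 kb window of Runx1 (82.9 kb) and 22.5% of the 420 kb window of Runx2 (94.5 kb). The number of regions was thus nearly equal, but the covered share at Runx3 was the highest of the 3. Regions stood at 17.6 per 100 kb at Runx3, 9.39 at Runx1 and 7.62 at Runx2. The windows were drawn around genes of different length, so shares also depend on how far each window reaches beyond its gene.

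**Figure D1:**
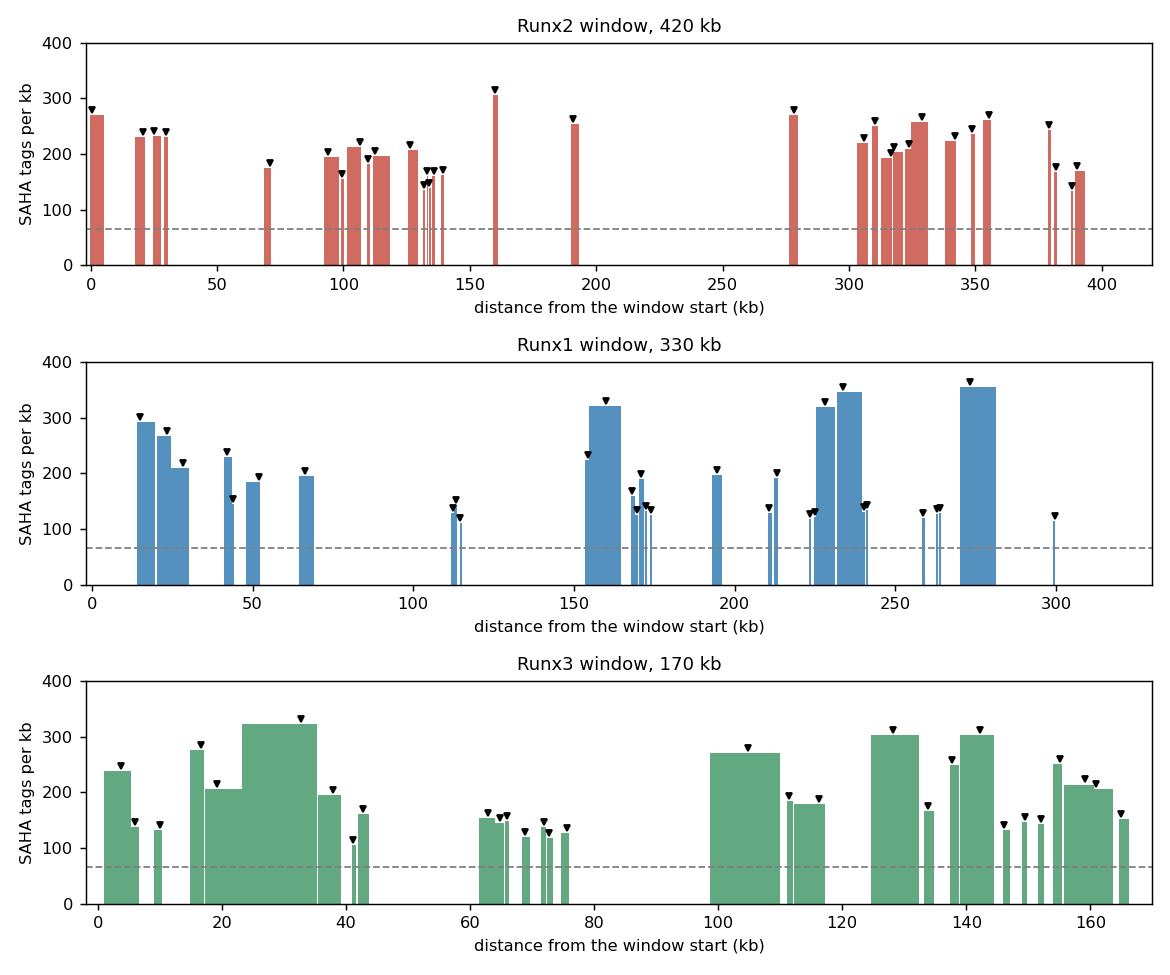
SAHA-high regions along the windows of Runx2, Runx1 and Runx3. The x axis is the distance from the window start in kb, each bar spans 1 region with its SAHA tags per kb as height, triangles mark summit positions and the dashed line is the genome average of 66.14 tags per kb. Runx2 has a gap of 83.0 kb in its middle, Runx1 a few tall and wide regions among many narrow ones, and Runx3 bars over 52.8% of its window.

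Pooled over the covered part of each locus, SAHA tags per kb were highest at Runx1. There 21302 tags gave 257 per kb (95% exact Poisson interval 254 to 260.4). This was 3.89 times the genome average, but regions were listed for high tags. Over all 61400 regions the density was 213 tags per kb. Over the regions of chromosomes 16, 4 and 17 it was 214, 215 and 235. Runx3 held 20865 tags at 233 per kb (229.5 to 236), and Runx2 20729 tags at 218 per kb (215 to 221). Runx2 was thus below the density over the regions of its chromosome. Runx1 exceeded Runx2 by 1.18 times (interval 1.15 to 1.20) and Runx3 by 1.10 times (1.08 to 1.13), and Runx3 exceeded Runx2 by 1.07 times (1.04 to 1.09). The intervals of the 3 pooled densities do not overlap. They cover counting error only, and a region's tags are part of how it was called. By the median over single regions the order was reversed, with 209 tags per kb at Runx2, 164 at Runx3 and 145 at Runx1. This median was 160 over all regions and 172 over the regions of chromosome 17. The order of the pooled densities therefore does not hold for the typical region.

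Each locus was set against other windows of its size, laid end to end from it within the span of listed regions on its chromosome. On chromosome 16, 283 windows of 330 kb had a median of 1 region, and 56.2% had at least 1. At least as many regions as at Runx1 were found in 8.13% of them, and 17 of the 283 had a larger covered share. On chromosome 17, 202 windows of 420 kb had a median of 8 regions, and 69.8% had at least 1. At least as many as at Runx2 were found in 7.92%, and 12 of the 202 had a larger covered share. On chromosome 4, 893 windows of 170 kb had a median of 1 region, and 50.3% had at least 1. At least as many as at Runx3 were found in 1.23%, and 4 of the 893 had a larger covered share. These places in the ranking are descriptions, since windows differ in genes and in how much of them can be mapped, which was not measured.

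**Figure D2:**
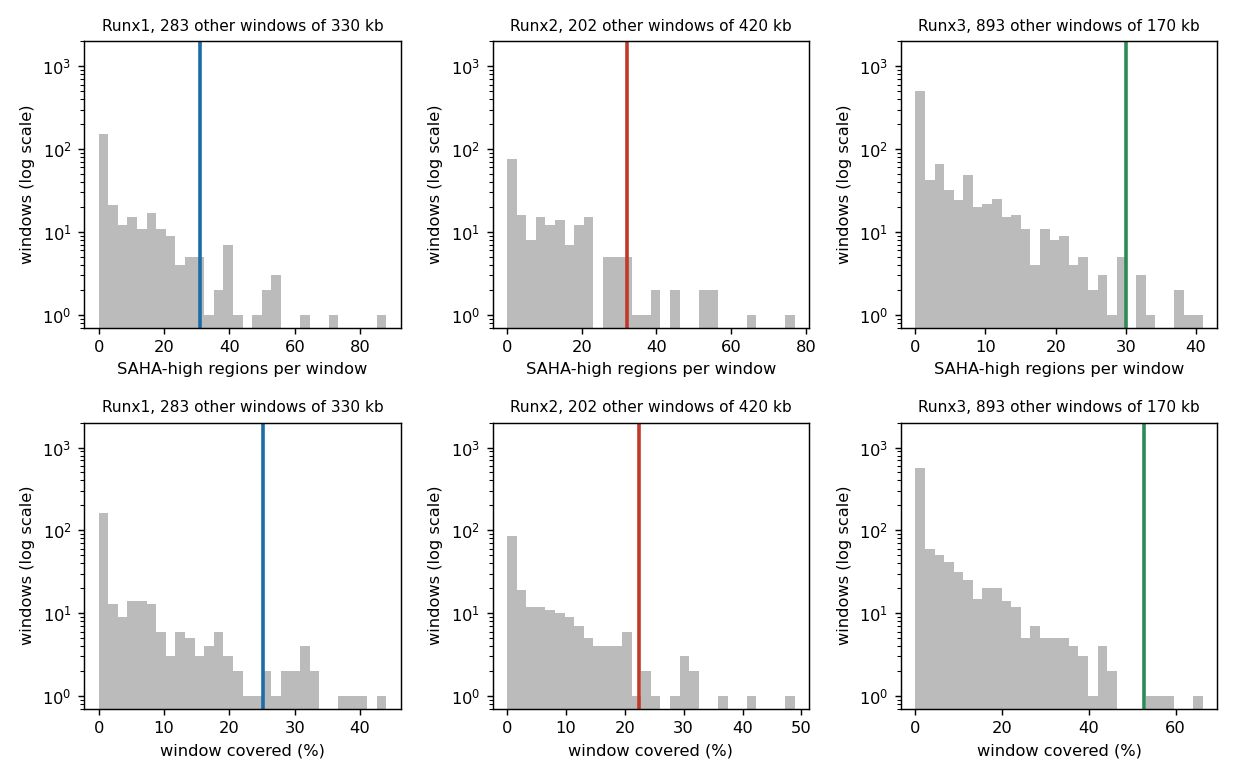
Number of SAHA-high regions (upper row) and share of the window covered in percent (lower row) in windows of the same size on the same chromosome, for Runx1, Runx2 and Runx3. Grey bars count the other windows on a log scale, and the coloured line is the locus. The Runx3 line at 52.8% covered has 4 of 893 windows above it.

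Pooled tag density gave another order than coverage. Among the windows with at least 1 region, the density at Runx1 was higher than in 151 of 159. At Runx3 it was higher than in 375 of 449, and at Runx2 higher than in 80 of 141. Runx2 thus lay near the median of these windows on its chromosome in density (208 tags per kb) and in the upper part in number of regions.

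The windows right beside the loci held fewer regions in 5 of 6 cases. Around Runx1 they had 15 and 20 regions, and 7.04% and 9.73% of their length was covered. Around Runx3 they had 10 and 9 regions, with 24.1% and 7.64% covered. On the lower-coordinate side of Runx2 there were 21 regions with 16.4% covered. On the other side there were 54 regions with 32.2% covered, more than at Runx2 itself.

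RefSeq's gene order in GRCm38.p6 puts Clic6 and Setd4 next to Runx1, Clic5 and 4930564C03Rik next to Runx2, and Syf2 and Clic4 next to Runx3, taking coding genes only. Supt3, which encodes a subunit of a histone acetyltransferase complex, overlaps Runx2, as does the non-coding gene Runx2os3. A region in the Runx2 window can therefore lie in Supt3 as well as in Runx2, and the list does not tell them apart.

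At Runx2, the gene for the master factor of osteoblast formation, SAHA-high regions had a larger median length than the list as a whole. Their median length was 2846.5 bp (quartiles 1245.5 and 4104 bp), against 1337 bp over all 61400 regions and 1169 and 1491 bp at Runx1 and Runx3. Of 92 windows of the same size on chromosome 17 with at least 10 regions, 89 had a shorter median. Only 4 of the 32 regions were shorter than 1 kb, and the longest reached 6683 bp. The 3 regions with most tags held 21.8% of the locus' tags.

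The Runx2 regions lay in 2 main groups with a sparse middle. When regions at most 10 kb apart were merged, 9 clusters resulted. One cluster of 11 regions spanned 47.5 kb, from 44672371 to 44719903, with 5552 SAHA tags. Another of 9 regions spanned 52.8 kb, from 44883182 to 44935957, with 7580 tags. Between them no region was listed over 83.0 kb, from 44773307 to 44856278. With the window split into 3 equal stretches, the middle one held 3 region summits and was 6.30% covered, against 32.4% and 28.8% for the outer ones.

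Summit folds at Runx2 were moderate. The fold, as deposited, is the highest SAHA point of a region over the local DMSO background. The median was 3.56 (range 2.50 to 5.77), against 3.93 over all regions. Of its 32 regions, 2 had a fold of at least 5 (6.25%), where 19.0% of all regions did. The highest, 5.77, was at 44883182 to 44887441, with 940 SAHA tags and its summit at 44885780. The next was 5.29 at 44672371 to 44678276 with 1146 tags and its summit at 44673761. Both lie at the lower-coordinate edge of the 2 main groups. A fold of 4.84 was found at 44958751 to 44959931, with 288 tags, and 4.57 at 44689438 to 44690332 (163 tags) and 44897326 to 44901377 (827 tags).

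Most tags at Runx2 were in the region from 44904594 to 44911232, with 1705 SAHA tags (95% Poisson interval 1625 to 1788), a fold of 3.52 and a summit at 44908741. It is 6639 bp long. The region at 44579619 to 44585166 followed with 1494 tags and a fold of 4.84, and its first bases reach out of the window while its summit at 44580636 is inside. The longest region, 44691746 to 44698428, had 1318 tags, a fold of 3.03 and its summit at 44692567. The 3 Runx2 regions with most tags thus had folds of 3.03 to 4.84, all below the highest of the locus. Nearest the other end of the window, the region at 44969323 to 44973345 held 681 tags with a fold of 2.88.

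The Runx1 locus, a gene of blood stem cell formation, had another makeup than Runx2: a few very large regions and many small ones. Of 31 regions, 15 (48.4%) were shorter than 1 kb, against 33.8% of all regions, 20.0% at Runx3 and 12.5% at Runx2. Those 15 held 6.35% of the locus' tags. The 6 regions longer than 5 kb held 68.5%, and the 3 with most tags 46.9%. Runx3 was much alike in this, with 62.6% in its 6 regions longer than 5 kb and 44.3% in its top 3. Regions longer than 5 kb made up 19.4% at Runx1, 20.0% at Runx3 and 15.6% at Runx2, against 7.85% of all regions. The median summit fold of 3.73 was slightly below that of all regions, but the fold reached 9.45, and 3 regions had a fold of at least 8. In all, 7 of the 31 had a fold of at least 5 (22.6%), close to the 19.0% of all regions.

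**Figure D3:**
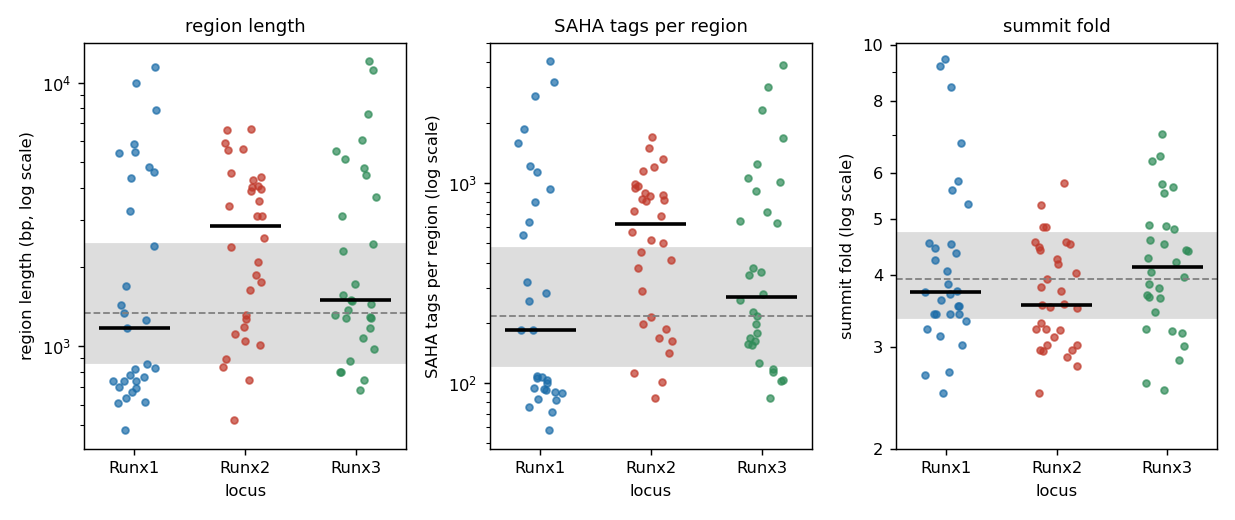
Length in bp, SAHA tags and summit fold of each SAHA-high region at Runx1, Runx2 and Runx3, on log axes. Each point is 1 region, black lines are locus medians, the grey band spans the quartiles of all 61400 regions and the dashed line their median. Runx1 splits into many regions under 1 kb and a few over 5 kb, while Runx2 has a median length of 2846.5 bp and no fold above 5.77.

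The highest folds at Runx1 came from adjoining regions. The region at 92704638 to 92714613 had a fold of 9.45, 3203 SAHA tags (interval 3093 to 3316) and its summit at 92709861, near its middle. Of all 61400 regions, 211 had a higher fold, which makes it rank 212. The region before it, 92703372 to 92704631, lay 6 bp away and had a fold of 9.22 with 281 tags and a summit at 92704303. Both may be parts of 1 domain that the caller listed separately. Toward the other end of the locus, the region at 92819985 to 92831408 held 4062 SAHA tags (interval 3938 to 4189) over 11.4 kb, the most of the 93 regions, with a fold of 8.45 and a summit at 92823279.

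Further large Runx1 regions had lower folds. At 92574748 to 92580149 the fold was 6.76, with 1133 tags and a summit at 92578324. It closed a group of 3 regions that covered 95.6% of 16.1 kb from the first region of the locus, at 92564019 to 92569468, which had 1589 tags and a fold of 5.30. At 92775428 to 92781279 there were 1863 tags with a fold of 5.81 and a summit at 92778179. Next to it, 92781840 to 92789748 held 2732 tags with a fold of 4.45 and a summit at 92783679. The strong regions of Runx1 thus stood in several separate places, and the longest stretch without a region was 42.6 kb. The last one, 92848921 to 92849739, was small, with 94 tags and a fold of 2.68.

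At Runx3, regions merged at distances of at most 10 kb formed 3 clusters in 170 kb, against 9 each in the longer windows of Runx1 (330 kb) and Runx2 (420 kb). By the median gap between neighbours, regions were closer at Runx1 (849 bp) than at Runx3 (1071 bp). The longest cluster, from 134718750 to 134786163, held 14 regions and 11377 tags, with 69.9% of 67.4 kb covered. The first cluster, from 134620921 to 134663726, held 9 regions and 8259 tags, with 78.6% of 42.8 kb covered. The middle cluster, from 134681510 to 134695926, held 7 regions but only 1229 tags, at 138 per kb. The outer clusters had 246 and 241 tags per kb. The longest stretch without a region was 22.8 kb.

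The region with most tags at Runx3 was also the longest of the 93. It ran from 134643276 to 134655346, or 12.1 kb, with 3890 SAHA tags (interval 3769 to 4014), a fold of 6.31 and a summit at 134652752. The highest fold, 7.01, was at 134758931 to 134764440, with 1669 tags and a summit at 134762124. A much smaller region, 134753196 to 134754760, had a fold of 6.43 with 261 tags. Folds of 5.74 and 5.68 were found at 134655430 to 134659115 (718 tags) and 134780589 to 134783711 (644 tags). High folds at Runx3 therefore occurred in large and in small regions. Of 30 regions, 6 had a fold of at least 5 (20.0%), near the 19.0% of all regions, and the median fold was 4.13.

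Other Runx3 regions with many tags had lower folds than these. At 134718750 to 134729969 there were 3032 tags with a fold of 4.28 and a summit at 134724789. At 134744670 to 134752306 there were 2314 tags with a fold of 2.85 and a summit at 134748190. The first region of the locus, 134620921 to 134625363, had 1062 tags and a fold of 4.80, and the last, 134784664 to 134786163, 227 tags and a fold of 4.60.

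The DMSO level recovered from the list differed between the loci and was highest at Runx2. The list gives no DMSO tags, so this level was computed from each region's tags and score. It was recovered for 92 of the 93 regions, and in 66 of them it matched a possible background. The other 26 matched none, so their level is approximate and is not shown to be what the caller used. All levels below are multiples of the average over the genome. The median level was 1.96 at Runx2 (quartiles 1.54 and 2.55). It was 1.24 at Runx3 (1.08 and 1.81) and 1.14 at Runx1 (1.00 and 1.78), against 1.29 over all regions. At least 1.5 times the average was reached by 25 of 32 Runx2 regions, 11 of 30 Runx3 regions and 9 of 30 Runx1 regions. Over all regions with a level this share was 35.0%, so Runx1 and Runx3 were near it, and Runx2 was above it with 78.1%. A level no more than 0.1% above the average was found in 10 regions at Runx1, 4 at Runx3 and 0 at Runx2, where the lowest was 1.13 times the average. The ranges overlap between all 3 loci.

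Against its chromosome, Runx2 stood near the top in this level. Of 92 windows of its size with at least 10 regions, 91 had a lower median level, and their own median was 1.45. Runx1 was lower than most on chromosome 16, with 15 of 88 windows below it. Runx3 was in the middle on chromosome 4, with 75 of 149 windows below it. A level matched to a background is an upper limit of the DMSO tags of the region, and 26 of the 92 matched none and are approximate. Approximate levels made up 11 of 30 at Runx1, 10 of 30 at Runx3 and 5 of 32 at Runx2, so the loci also differ in this. At Runx2, 27 of 32 regions were matched, none of them to the genome average. Of these, 13 were matched to DMSO tags over 1 kb, 12 to those over 10 kb and 2 to those in the region itself. The Runx2 levels are thus mostly local backgrounds, not DMSO tags counted within the regions.

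The ratio of SAHA tags to this level, over whole regions, was lowest at Runx2. Its median was 1.54 at Runx2 (range 1.23 to 2.15), 1.87 at Runx1 (1.39 to 3.37) and 1.89 at Runx3 (1.14 to 2.86), against 1.80 over all regions. The Runx1 median and range are from its 30 regions with a recovered level. A ratio of at least 2 was found in 2 of 32 regions at Runx2, 8 of 31 at Runx1 and 9 of 30 at Runx3. Together these are 19 of 93 regions (20.4%), where 28.3% of all regions reached it. Of the 92 windows on chromosome 17, 9 had a lower median ratio than Runx2. Since the level is the divisor of the ratio and longer regions pass the cutoff at smaller ratios, a high level and a low ratio go together in part by construction. In bulk chromatin, more cells with the mark and more mark per cell cannot be told apart.

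**Figure D4:**
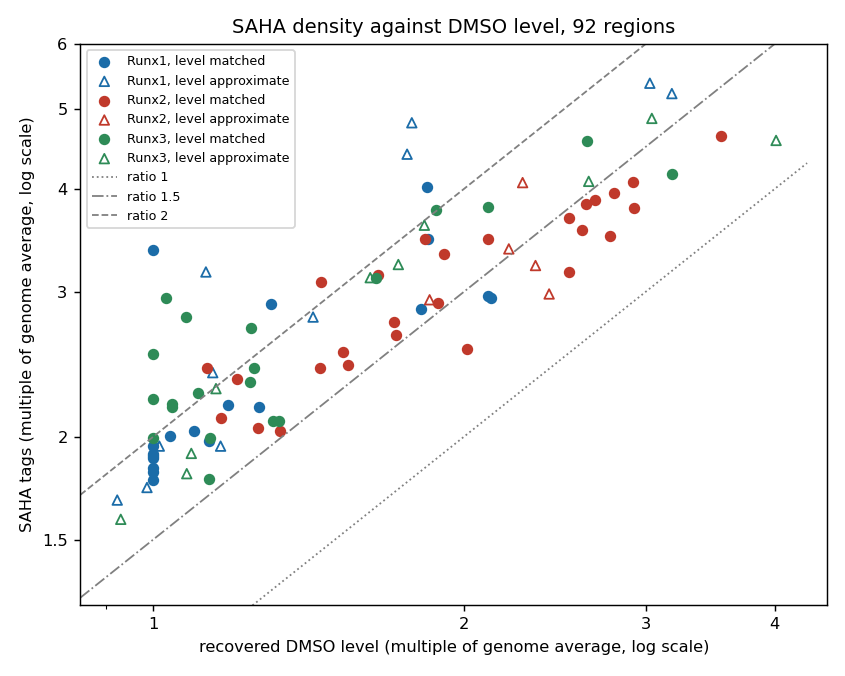
SAHA tags against the recovered DMSO level of 92 regions, both per length as multiples of the genome average, on log axes. Filled circles have a level matched to a possible background, open triangles an approximate level, and grey lines mark ratios of 1, 1.5 and 2. Most Runx2 regions lie at levels of 1.5 and above with ratios under 2, while 10 Runx1 regions lie at or below the average level.

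Among the 92 regions with a recovered level, the highest ratio was at Runx1, in the small region at 92703372 to 92704631. Its 281 SAHA tags stood against a level equal to the genome average, a ratio of at least 3.37 (interval 2.99 to 3.79, from the SAHA tags alone). Its large neighbour, 92704638 to 92714613, is at the ceiling of the score. The ratio of that neighbour was at least 2.08 and could be higher than that of the small region. The region with most tags, 92819985 to 92831408, had a level of about 3.03 times the average and a ratio of about 1.78. The small region and the one with most tags thus differed in the recovered level, the former an upper limit and the latter approximate. How far the DMSO tags within them differed is not known.

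At Runx3 the highest ratio, at least 2.86 (interval 2.66 to 3.08), was at 134655430 to 134659115, where the level was 1.03 times the average. Its neighbour with most tags, 134643276 to 134655346, had a level of about 3.04 and a ratio of about 1.60. The lowest ratio of the 93, about 1.14, was at 134744670 to 134752306, where the level was about 4.01 times the average. At Runx2 the highest ratio, at least 2.15 (interval 1.84 to 2.50), was in a region of 1048 bp at 44715043 to 44716090, with 168 SAHA tags. The Runx2 region of highest fold, 44883182 to 44887441, had a ratio of at least 1.74.

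In 10 regions the level equalled a whole number of DMSO tags in the region itself, so both libraries can be counted there. At Runx3, 134758931 to 134764440, the region of highest fold at that locus, held 1669 tags from SAHA and 591 from DMSO, and scaling made the latter 959. The scaled ratio was 1.74 (95% exact binomial interval 1.58 to 1.91). Also at Runx3, 134732150 to 134737261 held 916 SAHA and 259 DMSO tags, a scaled ratio of 2.18 (1.90 to 2.51). The highest of the 10 was 2.60 (1.88 to 3.65), at 134731041 to 134732112, with 198 SAHA and 47 DMSO tags. At Runx1, 92591177 to 92593568 held 550 SAHA and 180 DMSO tags, a scaled ratio of 1.88 (1.59 to 2.24). At Runx2 the 2 such regions were short, and the one at 44713669 to 44714680 held 141 SAHA and 48 DMSO tags, a scaled ratio of 1.81 (1.30 to 2.57). All 10 intervals were above 1, and the regions were listed for this excess.

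The caller's score, which rises with the evidence for more SAHA than DMSO tags, is 50 at its cutoff. A score of at least 100 was reached by 24 of 30 regions at Runx3, 20 of 32 at Runx2 and 16 of 31 at Runx1, or 60 of 93 (64.5%), near the 62.5% of all regions. The deposited FDR, in which the caller exchanges the libraries, was at least 58.34% in every one of the 93. This lowest value was not set against the whole list, so it is not shown to be a trait of the loci. The FDR stood at 100% in 9 regions at Runx1, 8 at Runx3 and 4 at Runx2, or 22.6% of the 93, where 11.6% of all regions had this value. At those scores at least as many regions were called with DMSO and SAHA exchanged, by the definition known for this caller. The strongest calls of each locus, such as 92704638 to 92714613 at Runx1 and 134643276 to 134655346 at Runx3, are among them.

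The summit lay within 20% of the region's length from either end in 10 of 32 regions at Runx2, 4 of 31 at Runx1 and 3 of 30 at Runx3. Together this was 18.3%, against 12.4% over all regions. Neighbouring regions were 1 kb or less apart in 17 of 30 gaps at Runx1, 14 of 29 at Runx3 and 8 of 31 at Runx2, where the median gap was 2334 bp. The share was 36.3% over all regions. Adjacent regions can be pieces of 1 domain, so they are not independent measurements.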

How the data were processed

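The build was mm9, and the submitters' processing notes name BWA 0.5.9, CASAVA 1.7.0, MACS 1.4.0rc2 and SAMtools. Per the file headers, MACS compared the SAHA reads with the DMSO reads as control at a p cutoff of 1e-05, kept at most 3 duplicate tags per position, scaled the smaller library to the larger and took local backgrounds over 1 kb and 10 kb. The deposited tags are whole counts of SAHA tags per region. The deposited score is 10 times the −log10 of the caller's p-value. The deposited fold is a ratio at the summit, and the deposited FDR is a percent. The DMSO level was computed as the Poisson mean that gives the listed score for the listed tags, for scores under 3000. It was called matched where it equalled, within the score's rounding of 0.005, a multiple of 1 scaled DMSO tag counted in the region, in 1 kb or in 10 kb, or else the average over the genome. This held for 66 of 92 members, against 1.66% on average by chance, and 3 of the 26 others came out below the average, which the caller's known method does not allow. Tested on 17899 simulated regions, the level erred by 0.0035% at most, and the kind of background was right in 97.1%. Simulated scores came from exactly the listed tags, by the same Poisson formula and only from the kinds of background named above. This therefore checks the arithmetic and not the caller's method, and it does not carry over to unmatched regions. Comparison windows were laid end to end from each locus over the span of listed regions, counting any overlap of 1 bp. In each locus, the regions named were the 5 of highest fold, the 3 with most tags, the longest, the first, the last and the one of highest ratio, and others by what the sentence says of them. Loci, lists and measures were chosen with earlier results of these data known. A list of Runx pathway genes was not used, for want of an mm9 annotation here. Python 3.11.15, numpy 2.4.6, pandas 2.3.3, scipy 1.17.1 and matplotlib 3.10.9 were used.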

Additional observations from a re-analysis of the deposited data

How the results depend on the processing

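Of 39 alternative values, 23 stayed within their limits (1.5 times for counts, the 95% interval for the others, the printed digits for covered shares) and 16 moved. Counting regions by their summit moved none. At a score of at least 100, Runx1 kept 16 regions and Runx2 20, and the covered share was 21.9% at Runx1, 17.6% at Runx2 and 45.3% at Runx3. At Runx1 the density was then 276 tags per kb, the median ratio 1.96, and 86.9% of windows had fewer regions in place of 91.9%. Joining regions within 1 kb left 14 at Runx1 and 16 at Runx3. Without the empty windows, 85.5% had fewer regions than Runx1 and 97.6% fewer than Runx3 (98.8% before), and with windows shifted by 50% it was 99.3% for Runx3. Without depth scaling the median ratios were 3.04, 2.50 and 3.06 at Runx1, Runx2 and Runx3, larger by the factor of 1.623 by construction. A higher score limit and joining can only lower the number of regions. For the remaining shifts the cause was not tested. No paired analysis was possible because each condition has 1 library. The unequal loss of duplicates cannot be undone from the list, and no alternative can stand in for replicates.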
